A study of Homo sapiens with 2 samples.

Results

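The human keratin genes were followed in 2 tumours of NCI-N87, an established line from a human gastric carcinoma whose ERBB2 gene (HER2) is amplified, implanted under the skin of nude mice. Members were chosen by gene symbol alone, as rows named KRT followed by a number and, where present, A, B or C, which gave 55 genes of the 29972 in the table. The T-DM1-refractory tumour came from mice given T-DM1 (trastuzumab emtansine, an antibody against HER2 that carries a microtubule poison) at intervals of 3 weeks over 18 weeks, and the untreated tumour received no treatment. Each group was 1 library of polyadenylated RNA, so no difference below has a replicate check and no test across tumours was possible. The libraries held 59902712 expected counts in the refractory tumour and 75722114 in the untreated tumour.

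Keratins are the intermediate filament proteins of epithelial cells. A filament is built from pairs of a type I and a type II keratin, so each epithelium makes matched members of both types. Simple, single-layered epithelia such as that of the stomach use KRT8, KRT18, KRT19 and KRT7. The basal layer of stratified epithelia uses KRT5 with KRT14, and KRT15 in addition, while the layers above it switch to suprabasal keratins such as KRT1 with KRT10 in epidermis and KRT4 with KRT13 in moist mucosa. KRT6A, KRT6B, KRT6C, KRT16 and KRT17 are switched on in wounded or activated epidermis, and KRT20 marks intestinal and gastric surface cells. The type II genes and KRT18 lie together on chromosome 12, the remaining type I genes on chromosome 17.

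In the refractory tumour the basal keratins KRT5 and KRT14 and the intestinal keratin KRT20 were far lower than in the untreated tumour. Keratins of stratified epithelium were mostly lower, but by unlike folds. Of the 11 basal stratified, suprabasal and activation keratins with at least 1 CPM in either library, 6 were at least 2-fold lower and 0 at least 2-fold higher. KRT10 alone among them had the higher CPM in the refractory tumour. Of the 4 simple keratins, 0 were at least 2-fold lower and KRT7 was at least 2-fold higher. Levels are given as CPM, counts divided by TMM-scaled library sizes, and genes with 1 CPM or more in either library are called described. Of the 55 keratins, 19 were described, 18 had some counts but under 1 CPM in both libraries, and 18 had 0 counts in both. A difference is the log2 of the refractory over the untreated level with 1 CPM added to each. That addition shrinks the differences of low genes, and calls were made at 2-fold on this scale. Of the 19 described keratins, 9 were at least 2-fold lower, 1 was at least 2-fold higher and 9 lay between. All 19 reached 1 CPM in the untreated tumour and 14 did in the refractory tumour. KRT4, KRT5, KRT9, KRT20 and KRT81 are thus described through the untreated tumour alone, and all but KRT9 were called lower. Counts of lower genes and medians include genes admitted this way, in the lists below too. By direction alone, 17 of the 19 had the lower CPM in the refractory tumour, and KRT7 and KRT10 the higher. Among all 14167 described genes, 11.0% were called lower and 9.80% higher. The median log2 difference of the described keratins was -0.94, against 0.03 over all described genes. Ratios of CPM without the added CPM are given with exact 95% intervals (Clopper-Pearson), which cover counting error only. The tumours were bulk samples, so fewer cells of a kind and less RNA per cell cannot be told apart.

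**Figure D1:**
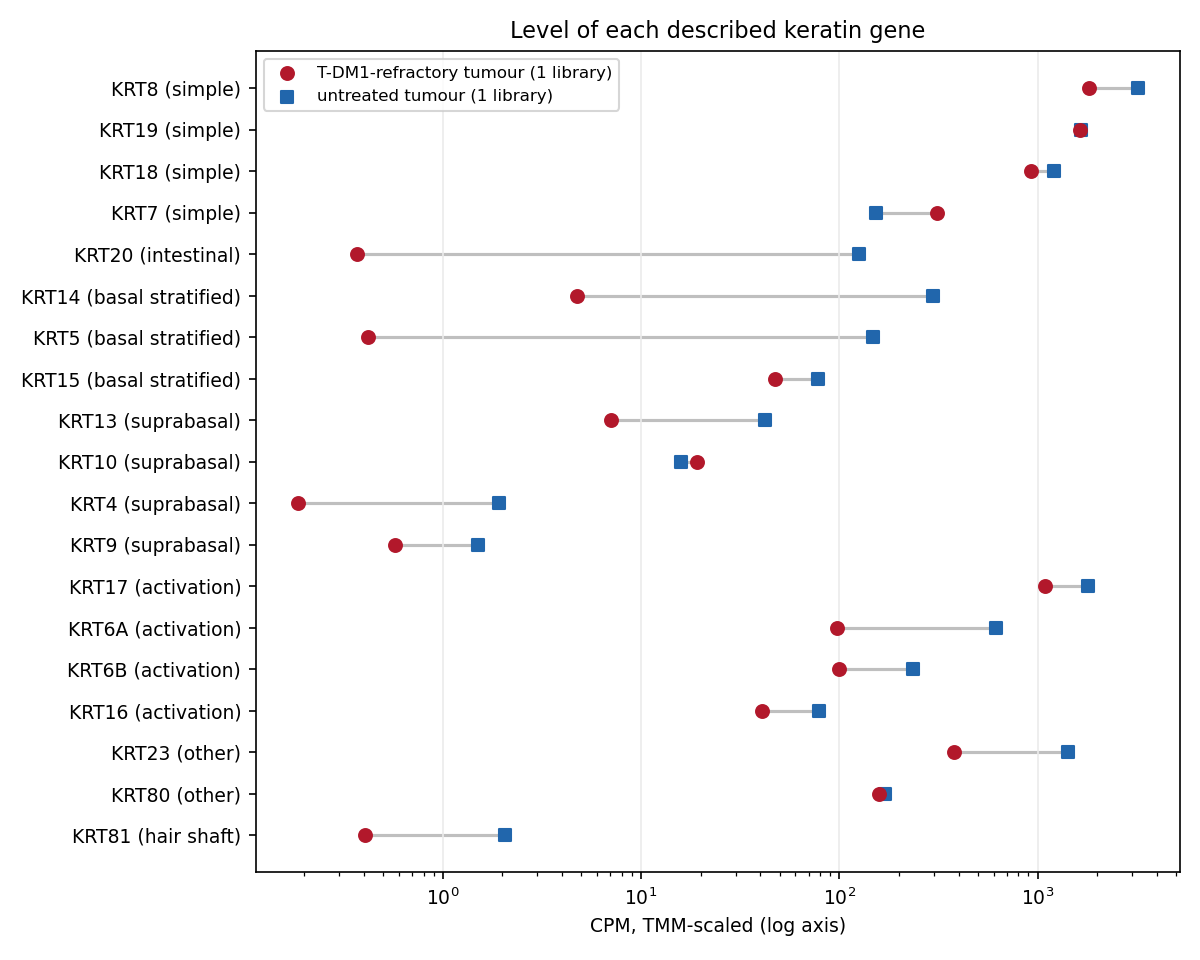
CPM (log axis) of the 19 keratins with at least 1 CPM in either library, by class; circles are the T-DM1-refractory tumour and squares the untreated tumour, 1 library each. KRT5, KRT14 and KRT20 have the widest gaps, and KRT19 and KRT80 nearly coincide.

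Keratin mRNA as a whole was lower. All 55 genes together made up 0.659% of the counts in the refractory tumour and 1.14% in the untreated tumour, or 6652 CPM in the refractory and 11266 CPM in the untreated tumour, which is 1.69-fold lower (95% interval 1.69 to 1.70). The gap can be split by gene in counts, which are not levels per length. The summed level was lower by 4614 CPM, of which KRT8 and KRT23 gave 2416 CPM and KRT5, KRT14 and KRT20 together 568 CPM.

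The 4 simple keratins were the most abundant class per length in both tumours, with a summed 3582 FPKM (fragments scaled by transcript length and library size, as the authors computed them) in the refractory and 4698 FPKM in the untreated tumour. KRT19, a type I keratin with a very short tail, stood at 1639.6 CPM in the refractory and 1659 CPM in the untreated tumour, a 1.01-fold difference (95% interval 1.003 to 1.020). KRT18, the type I partner of KRT8, stood at 922 CPM in the refractory and 1215 CPM in the untreated tumour, 1.32-fold lower (95% interval 1.30 to 1.33). KRT8, the main simple type II keratin, stood at 1827 CPM in the refractory and 3204 CPM in the untreated tumour, 1.75-fold lower (95% interval 1.74 to 1.77). All 3 stayed within 2-fold, KRT8 being the closest of them to the threshold. KRT7, a type II keratin of ducts and of many gastric carcinomas, went the other way, with 311 CPM in the refractory and 153 CPM in the untreated tumour, a ratio of 2.03 (95% interval 1.99 to 2.08). Its log2 difference of 1.02 lies so near the threshold that the call was lost with library sizes not scaled by TMM (0.99). Summed, the simple class stood at 4699 CPM in the refractory and 6230.3 CPM in the untreated tumour, a ratio of 0.754 (95% interval 0.751 to 0.758).

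In the basal stratified class both members of the KRT5 and KRT14 pair were far lower, and KRT15 was within 2-fold. KRT5, the type II keratin of basal cells (chromosome 12, coding positions 52514942 to 52520296), had 25 counts in the refractory and 11369 in the untreated tumour. This is 0.421 CPM in the refractory and 149 CPM in the untreated tumour, 353-fold lower (95% interval 239 to 546). KRT14, its type I partner (chromosome 17, 41582435 to 41586834), stood at 4.75 CPM in the refractory and 298 CPM in the untreated tumour, 62.8-fold lower (95% interval 55.8 to 70.9). The fold of KRT14 was smaller than that of KRT5, and their counting intervals do not overlap. KRT15, a type I keratin of basal cells without a fixed partner of its own, stood at 47.5 CPM in the refractory and 78.3 CPM in the untreated tumour, 1.65-fold lower (95% interval 1.58 to 1.72). Per length, KRT15 gave 20.9 of the 24.6 FPKM of the class in the refractory tumour and 33.6 of its 330.1 FPKM in the untreated tumour. The class summed to 52.7 CPM in the refractory and 526 CPM in the untreated tumour.

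KRT20 (chromosome 17, 40876361 to 40885185), the sole keratin of the intestinal class, had 22 counts in the refractory and 9655 in the untreated tumour. On the CPM scale it stood at 0.371 in the refractory and 126 in the untreated tumour, 341-fold lower (95% interval 225 to 544). The intervals of KRT5 and KRT20 overlap, so the data do not separate the size of their difference, although the genes belong to different epithelia and different chromosomes. In the order of keratins by FPKM, KRT20 was 18th in the refractory and 10th in the untreated tumour, and KRT5 was 19th in the refractory and 11th in the untreated tumour.

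The proximal promoters of KRT5 and KRT20 are shown because these genes had the largest folds, and that of KRT10 because it was described and stayed within 2-fold. KRT8 and KRT9 were likewise described and not called, and theirs are not shown. Each sequence runs from 250 bases before the RefSeq start to 50 bases after it (build GRCh38.p14, minus strand, chr12:52520345-52520644 for KRT5, chr17:40885193-40885492 for KRT20 and chr17:40822565-40822864 for KRT10). Capitals mark TATAAA, its variant ATAAAA, and a half-site motif of the p53 family, to which the basal-cell regulator TP63 belongs, on either strand. The half-site was searched only as RRRCATGYYY, where R is A or G and Y is C or T. Half-sites with other letters in the middle were not searched and are not marked.
KRT5: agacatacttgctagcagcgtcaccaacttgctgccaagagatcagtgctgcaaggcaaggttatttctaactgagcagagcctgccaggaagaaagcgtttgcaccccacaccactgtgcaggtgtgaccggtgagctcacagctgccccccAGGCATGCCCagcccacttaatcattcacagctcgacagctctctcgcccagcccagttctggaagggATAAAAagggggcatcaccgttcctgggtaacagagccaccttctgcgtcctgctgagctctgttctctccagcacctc
KRT20: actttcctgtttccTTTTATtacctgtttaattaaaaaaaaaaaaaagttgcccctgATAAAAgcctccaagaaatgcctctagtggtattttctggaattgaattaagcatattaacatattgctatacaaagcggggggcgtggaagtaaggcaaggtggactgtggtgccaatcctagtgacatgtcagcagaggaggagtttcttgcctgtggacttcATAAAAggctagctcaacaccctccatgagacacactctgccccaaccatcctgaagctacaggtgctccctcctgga
KRT10: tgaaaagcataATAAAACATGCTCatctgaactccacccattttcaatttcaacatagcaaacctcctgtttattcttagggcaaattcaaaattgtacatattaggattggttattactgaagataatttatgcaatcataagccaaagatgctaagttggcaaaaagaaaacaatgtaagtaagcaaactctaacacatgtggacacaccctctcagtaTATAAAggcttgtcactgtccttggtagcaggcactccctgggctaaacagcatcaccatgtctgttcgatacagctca
KRT5 and KRT20 each carry ATAAAA, starting 29 and 28 bases before the start, and KRT10 carries TATAAA 29 bases before it. KRT5 holds a p53-family half-site 97 bases before the start, and so does KRT10, where it lies 236 bases before the start and overlaps an ATAAAA. The KRT20 window holds no match to the form searched, and other forms of the half-site were not looked for. Of 35116 RefSeq promoters of this length, 1.57% hold the form searched. Counted by gene, 3 of the 34 keratins with a promoter in the table do. TATAAA or ATAAAA was found in 29 of these 34 keratins and in 21.1% of all promoters. Counted by gene, the AP-2 motif GCCNNNGGC (23.2% of all promoters) was present in 5 of the 34 keratins, and the GC box GGGCGG (45.0%) in 6. Shares of all promoters are counted by window. The third keratin with the half-site was KRT8, 136 bases before the RefSeq start used. That window (chr12:52926420-52926719) is not next to the KRT8 coding region (52897428 to 52904981), while the shown windows adjoin theirs. Which KRT8 start these tumours used was not examined. These matches describe letters and not bound sites, and their part in the differences was not tested.

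The suprabasal class divided by gene. KRT13, the type I keratin of the upper layers of moist mucosa, stood at 7.03 CPM in the refractory and 41.97 CPM in the untreated tumour, 5.97-fold lower (95% interval 5.39 to 6.63). KRT4, its type II partner, stood at 0.185 CPM in the refractory and 1.92 CPM in the untreated tumour, 10.4-fold lower (95% interval 5.63 to 21.2). Both members of the mucosal pair were called lower, KRT4 on only 11 counts in the refractory and 147 in the untreated tumour. KRT10, the type I keratin of differentiating epidermis, stood at 19.1 CPM in the refractory and 15.8 CPM in the untreated tumour, a ratio of 1.21 (95% interval 1.11 to 1.31). Its partner KRT1 had 0 counts in the refractory and 2 in the untreated tumour, and KRT2, of the upper epidermis, had 0 in both. The cornified envelope gene LOR (loricrin) was also at 0 in both. KRT9, of palm and sole skin, stood at 0.573 CPM in the refractory and 1.504 CPM in the untreated tumour and was not called, being 2.62-fold lower without the added CPM (95% interval 1.78 to 3.97). With these members the class sum was 27.1 CPM in the refractory and 62.7 CPM in the untreated tumour, a ratio of 0.433 (95% interval 0.409 to 0.458).

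Activation keratins were the second class per length, with a summed 943 FPKM in the refractory and 1829 FPKM in the untreated tumour, of which KRT17 gave 820 FPKM in the refractory and 1366 FPKM in the untreated tumour. KRT17, a type I keratin of wounded epidermis and of many carcinomas, stood at 1092 CPM in the refractory and 1792 CPM in the untreated tumour, 1.64-fold lower (95% interval 1.62 to 1.66). KRT6A, a type II keratin of activated epidermis, stood at 97.4 CPM in the refractory and 618 CPM in the untreated tumour, 6.34-fold lower (95% interval 6.17 to 6.52). KRT6B, its close copy, stood at 99.3 CPM in the refractory and 237 CPM in the untreated tumour, 2.38-fold lower (95% interval 2.32 to 2.46). Per length, KRT6A and KRT6B stood at 44.7 and 49.4 FPKM in the refractory tumour, and KRT6A exceeded KRT6B in the untreated tumour (288 and 119 FPKM). KRT16, the usual type I partner of KRT6, stood at 41.0 CPM in the refractory and 79.4 CPM in the untreated tumour, 1.94-fold lower (95% interval 1.85 to 2.03), just short of the threshold with a log2 of -0.94. KRT6C had 0.202 CPM in the refractory and 0.824 CPM in the untreated tumour. The activation class summed to 1330.4 CPM in the refractory and 2727 CPM in the untreated tumour, a ratio of 0.488 (95% interval 0.484 to 0.492).

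The split of reads between near-identical keratins is uncertain. Among 75-base windows of GENCODE 29 protein-coding transcripts, 26.2% of those of KRT6A, 34.9% of those of KRT6B and 42.9% of those of KRT6C occur in another gene, and 35.9% of those of KRT81 and 30.7% of those of KRT86 do. The 75 bases are a choice made here, since the sources used here state no read length. For KRT14 the share was 10.01%, for KRT16 7.74%, for KRT8 6.22%, for KRT18 4.33%, for KRT17 3.03% and for KRT5 1.92%. The other described keratins shared no window. Summed over the 3 KRT6 genes, which avoids the split, the level was 197 CPM in the refractory and 856 CPM in the untreated tumour, 4.34-fold lower (95% interval 4.26 to 4.43).

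KRT23, KRT80 and KRT81 complete the described members. KRT23, a type I keratin found in simple epithelia and in several carcinomas, stood at 381 CPM in the refractory and 1419 CPM in the untreated tumour, 3.73-fold lower (95% interval 3.67 to 3.78). Per length it was the most abundant keratin called lower, with 232 FPKM in the refractory and 862 FPKM in the untreated tumour. KRT80, a type II keratin found across many epithelia, stood at 159 CPM in the refractory and 169 CPM in the untreated tumour, 1.06-fold lower (95% interval 1.04 to 1.09). KRT81, a hair shaft keratin that has been seen in carcinomas, stood at 0.405 CPM in the refractory and 2.07 CPM in the untreated tumour, 5.11-fold lower (95% interval 3.31 to 8.21). Its close copy KRT86 ran the other way on few reads, with 0.354 CPM in the refractory and 0.118 CPM in the untreated tumour. Added together, KRT81 and KRT86 stood at 0.758 CPM in the refractory and 2.18 CPM in the untreated tumour, 2.88-fold lower (95% interval 2.06 to 4.10). With 1 CPM added the log2 of the sums was -0.86, so the call of KRT81 was lost when its reads were pooled with those of its copy.

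**Figure D2:**
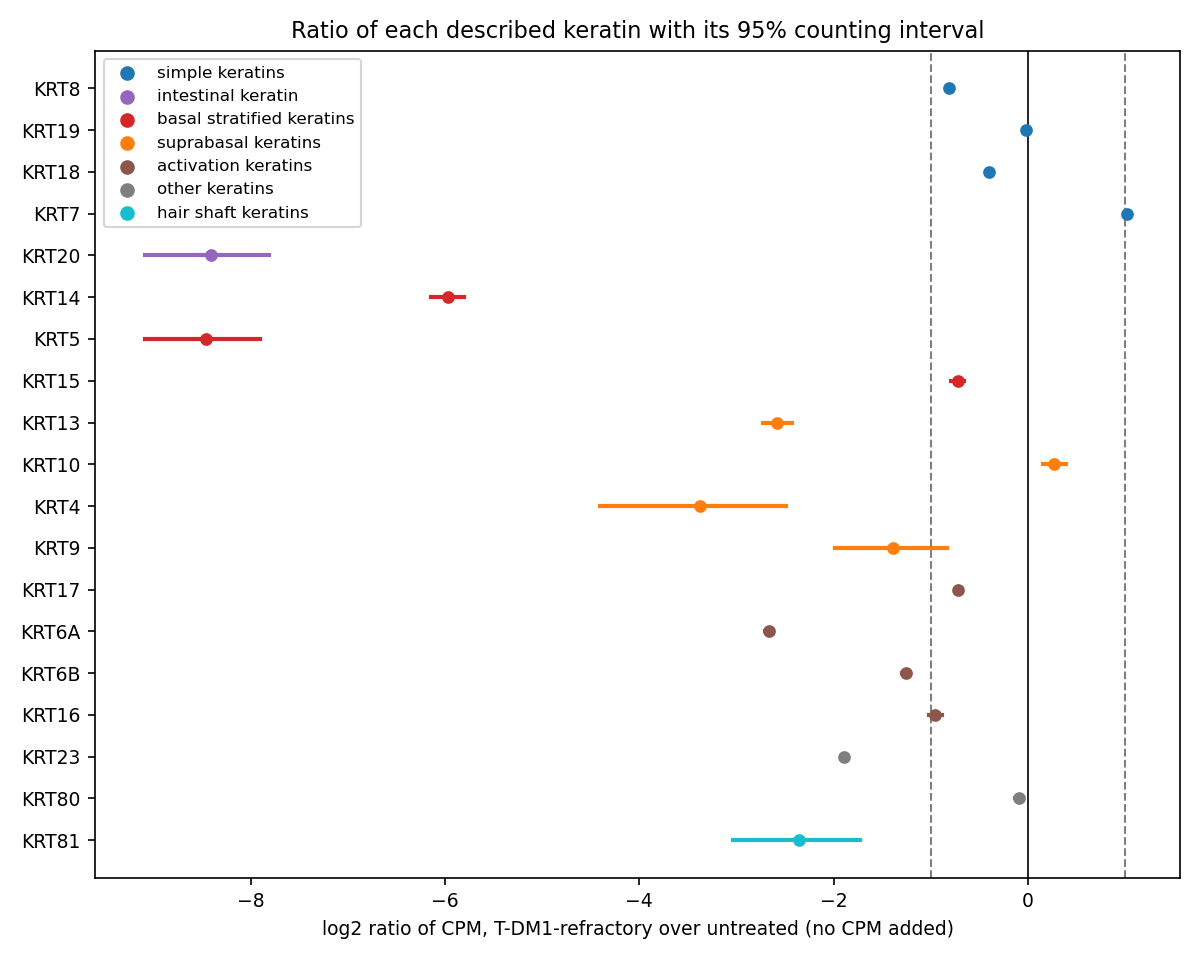
Log2 ratio of CPM without added CPM, T-DM1-refractory over untreated, for the 19 described keratins, coloured by class. Bars are exact 95% intervals for counting error only and dashed lines mark 2-fold; KRT20 and KRT5 lie furthest to the left and KRT7 is the sole gene at the upper line, while KRT9 passes the lower line only without the added CPM.

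Most members with some counts but under 1 CPM had the lower level in the refractory tumour. The same share over all genes at this level was not computed, so this is not read as a result about keratins. Of the 18 with some counts, 14 had the lower CPM in the refractory tumour and 4 the higher (KRT36, KRT37, KRT75 and KRT86). None of them reached above 0.824 CPM, and several rest on a handful of reads. KRT85, a hair cuticle keratin, had 0 counts in the refractory and 62 in the untreated tumour, at least 16.0-fold lower at a floor of 3 counts in the refractory library (0.0506 CPM). KRT78, a suprabasal keratin, had 2 counts in the refractory and 53 in the untreated tumour, 20.6-fold lower (95% interval 5.42 to 174). KRT75, a keratin of the companion layer of the hair follicle, had 43 counts in both. The other members of this group were KRT1, KRT6C, KRT12, KRT31, KRT34, KRT38, KRT39, KRT40, KRT74, KRT77, KRT79 and KRT222. The members at 0 in both were KRT2, KRT3, KRT24, KRT25, KRT26, KRT27, KRT28, KRT32, KRT33A, KRT33B, KRT35, KRT71, KRT72, KRT73, KRT76, KRT82, KRT83 and KRT84, for which 0 counts allow up to 0.0506 CPM in the refractory and 0.0392 CPM in the untreated tumour. Most of these belong to the hair follicle, hair shaft or cornea.

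Per length, on the deposited FPKM scale, the simple class took a larger share of keratin mRNA in the refractory tumour. Simple keratins gave 74.0% of all keratin FPKM in the refractory tumour and 59.5% in the untreated tumour. The basal stratified class gave 0.509% in the refractory and 4.18% in the untreated tumour, and KRT20 gave 0.00501% in the refractory and 1.06% in the untreated tumour. Activation keratins gave 19.5% in the refractory and 23.2% in the untreated tumour. KRT23 and KRT80, with the minor members grouped with them, gave 5.69% in the refractory and 11.5% in the untreated tumour, and suprabasal keratins gave 0.323% in the refractory and 0.516% in the untreated tumour. The leading gene by FPKM differed: KRT19 was first in the refractory tumour (1375 FPKM, against 1406 in the untreated tumour), and KRT8 was first in the untreated tumour (1201 FPKM in the refractory, 2133 in the untreated tumour). Over the 19 described keratins the order of FPKM in the libraries had a Spearman rho of 0.80, a description over genes of the same pair of libraries.

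**Figure D3:**
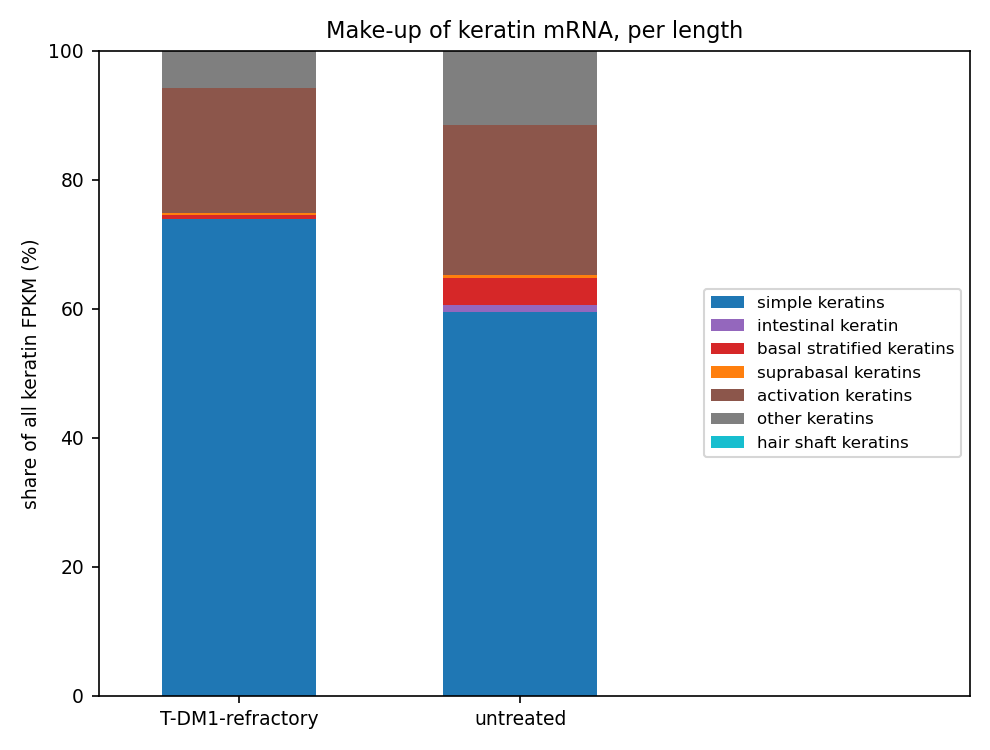
Share of all keratin FPKM (percent) by class, in the T-DM1-refractory tumour (left) and the untreated tumour (right), 1 library each. The simple class takes 74.0% in the refractory and 59.5% in the untreated tumour; the hair shaft class is too small to see and the root sheath class, at 0.00808% in the refractory and 0.00543% in the untreated tumour, is not drawn.

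The balance of type I to type II mRNA differed less in total than within pairs. All type I keratins over all type II keratins gave a ratio of summed FPKM of 2.11 in the refractory and 1.84 in the untreated tumour. For the simple class alone, KRT18 and KRT19 over KRT7 and KRT8, it was 1.53 in the refractory and 1.10 in the untreated tumour. KRT7 stood at 0.181 of the FPKM of KRT8 in the refractory and at 0.0508 in the untreated tumour. In the basal pair KRT14 exceeded KRT5 by 16.9-fold in the refractory and 2.99-fold in the untreated tumour, the refractory value resting on 25 counts of KRT5. Whether some KRT14 reads came from genes that share its sequence was not tested. KRT17 stood at 8.72 times the summed FPKM of KRT6A and KRT6B in the refractory and at 3.36 times in the untreated tumour. The ratio of KRT13 to KRT4 was 49.4 in the refractory and 28.4 in the untreated tumour, with 11 counts of KRT4 behind the refractory value.

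Along the chromosomes KRT5, KRT14 and KRT20 each had keratins with smaller differences next to them, but keratins called lower did lie together. On chromosome 12 all 5 of them (KRT81, KRT6B, KRT6A, KRT5 and KRT4) were consecutive among the described keratins. On chromosome 17, KRT20, KRT23 and KRT13 were consecutive in the same way, and KRT14 stood apart. On chromosome 17, KRT14 (log2 -5.70) lies 10.4 kb from KRT9 (-0.67) and 23.1 kb from KRT16 (-0.94), and KRT20 (-6.54) lies 9.18 kb from KRT12 (-0.44, under 1 CPM) and 37.8 kb from KRT23 (-1.89). On chromosome 12, KRT5 (-6.72) follows KRT6A (-2.65) at 21.8 kb, with KRT6C (-0.60, under 1 CPM) and KRT6B (-1.25) beyond. The added CPM shrinks the values of the low neighbours. Without it KRT9 was 2.62-fold, KRT12 2.98-fold and KRT6C 4.07-fold lower. The 20 described genes nearest the chromosome 12 cluster (52171398 to 52952842) held 2 higher and 3 lower and had a median log2 of 0.05. The 20 nearest the chromosome 17 cluster (40656402 to 41624509) held 1 higher and 4 lower and had a median of -0.45. Of all described genes, 9.80% were higher and 11.0% lower, with a median of 0.03. On 20 genes a cluster, these counts are not read as a shift of either region. The lowest neighbour on chromosome 17 was FKBP10, a collagen chaperone, at 2.68 CPM in the refractory and 182 CPM in the untreated tumour. Inside the chromosome 17 cluster KRTAP9-4, one of a family of near-identical keratin-associated proteins of hair, was called higher, with 1.15 CPM in the refractory and 0 CPM in the untreated tumour. In the same interval TMEM99 stood at 32.9 CPM in the refractory and 39.6 CPM in the untreated tumour. ERBB2, whose coding region ends 0.928 Mb before that cluster, stood at 7975 CPM in the refractory and 7267 CPM in the untreated tumour.

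**Figure D4:**
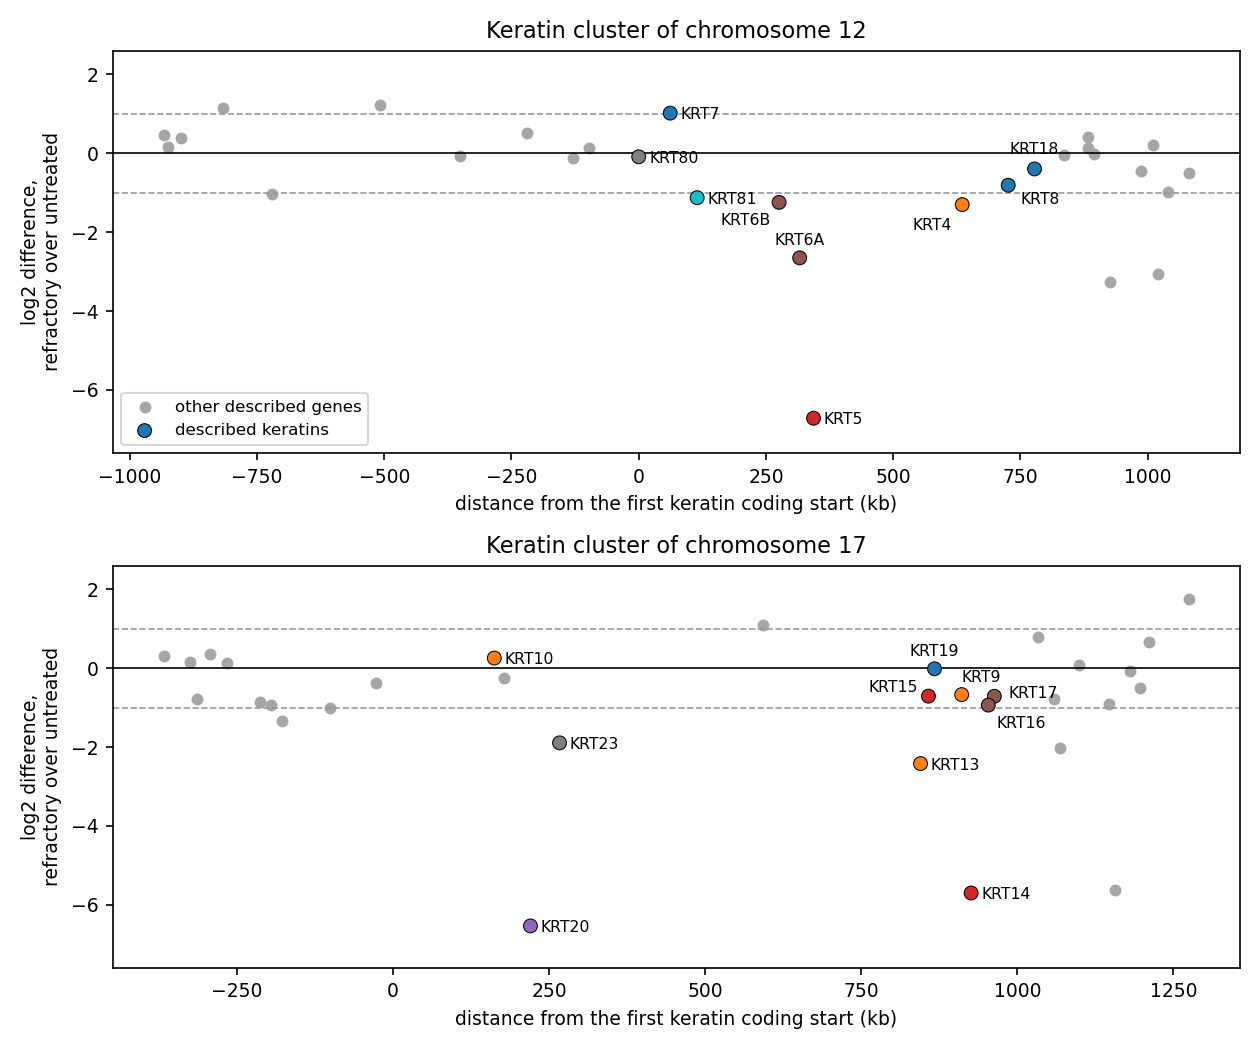
Log2 difference on the log2(CPM + 1) scale, T-DM1-refractory over untreated, against distance in kb from the first keratin coding start of each cluster. Coloured points are described keratins, coloured by class as in the plot of ratios, grey points are other described genes in and around the clusters, and dashed lines mark 2-fold; KRT5, KRT14 and KRT20 stand far below keratins next to them.

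Genes that anchor or bundle keratin filaments also differed. Of 14 filament linkers, all described, 6 were lower and 1 higher (median log2 -0.60), against 11.0% and 9.80% of all described genes. TCHH (trichohyalin), a bundling protein of the hair follicle, stood at 0.371 CPM in the refractory and 22.4 CPM in the untreated tumour. FLG (filaggrin), which aggregates keratin in cornified cells, stood at 0.320 CPM in the refractory and 21.2 CPM in the untreated tumour. DST (dystonin), whose epithelial form ties KRT5 and KRT14 filaments to hemidesmosomes, was higher, at 891 CPM in the refractory and 421 CPM in the untreated tumour, in counts that do not separate its forms. The desmosomal linkers DSP and JUP were not lower: DSP (desmoplakin) stood at 1612 CPM in the refractory and 1089 CPM in the untreated tumour, and JUP (plakoglobin) at 1135 CPM in the refractory and 1078 CPM in the untreated tumour. PKP1, the plakophilin of stratified epithelia, stood at 7.03 CPM in the refractory and 95.5 CPM in the untreated tumour. PLEC (plectin), also abundant, was called lower just past the threshold, at 519 CPM in the refractory and 1044 CPM in the untreated tumour. PPL (periplakin) was too, at 114 CPM in the refractory and 229 CPM in the untreated tumour. DSP, JUP, PKP1, PLEC and PPL were picked after their values were seen.

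Among 17 regulators of stratified epithelium, 15 were described, of which 6 were lower and 0 higher (median log2 -0.56), against 11.0% lower and 9.80% higher among all described genes. PRDM1 (BLIMP1), a repressor that acts in epidermal differentiation, stood at 3.34 CPM in the refractory and 24.8 CPM in the untreated tumour. GRHL3, a grainyhead factor of the epidermal barrier, stood at 1.85 CPM in the refractory and 15.8 CPM in the untreated tumour. TP63, the main regulator of basal cells and picked with its values known, was low in both, with 27 counts (0.455 CPM) in the refractory and 88 (1.15 CPM) in the untreated tumour. Of the intestinal regulators, CDX2, an intestinal homeobox factor picked with its values known, stood at 5.66 CPM in the refractory and 10.2 CPM in the untreated tumour, and CDX1 had 0 counts in both. Of the other intermediate filament genes, 8 of 15 were described, with 0 higher and 2 lower (median log2 0.40), set against the same 9.80% higher and 11.0% lower of all described genes: BFSP1 stood at 6.96 CPM in the refractory and 28.5 CPM in the untreated tumour, and DES, the muscle filament gene, at 0.253 CPM in the refractory and 2.46 CPM in the untreated tumour. Vimentin, VIM, the filament gene of mesenchymal cells, was picked with its values known and stood at 6.22 CPM in the refractory and 5.65 CPM in the untreated tumour.

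**Figure D5:**
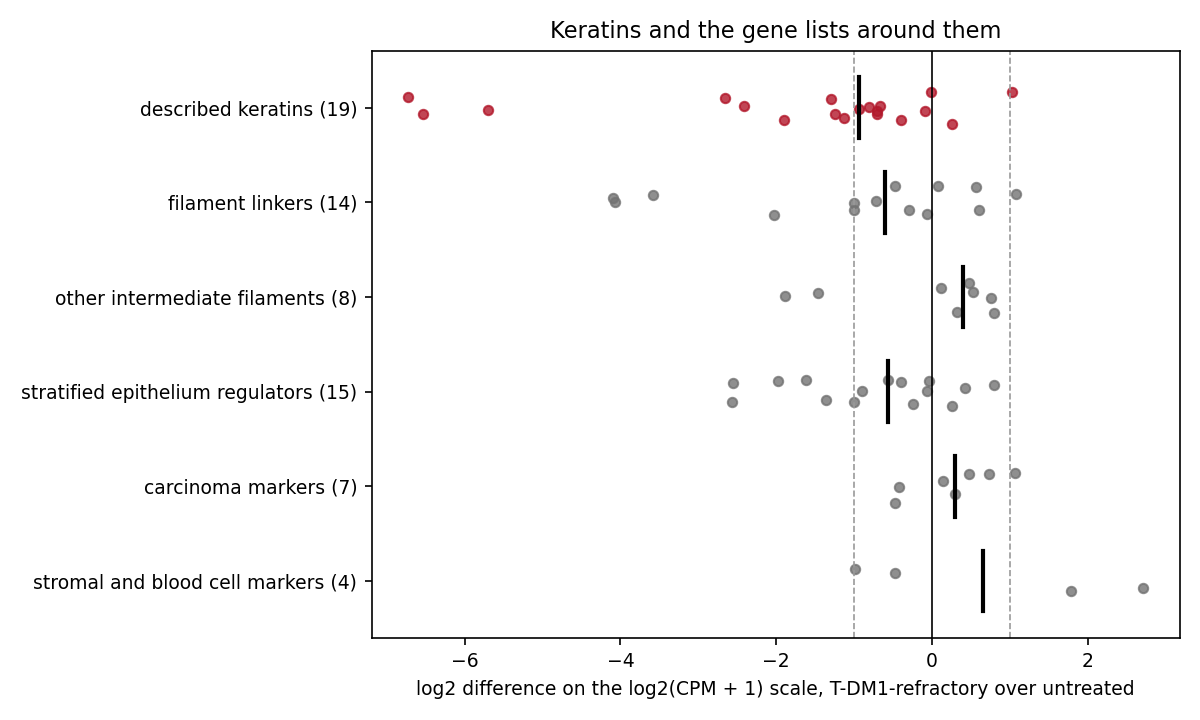
Log2 difference on the log2(CPM + 1) scale, T-DM1-refractory over untreated, of each described gene (points, spread vertically for sight) in the keratin family and the lists set beside it, with the number described in brackets. Thick bars are medians and dashed lines mark 2-fold; the keratin median is -0.94 and that of the filament linkers -0.60.

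All 7 carcinoma markers were described, with 1 higher and 0 lower (median log2 0.30), beside 9.80% higher and 11.0% lower of all described genes, so the count of higher genes is near the background: CEACAM5 stood at 189 CPM in the refractory and 89.7 CPM in the untreated tumour, and EPCAM, picked with its values known, at 785 CPM in the refractory and 471 CPM in the untreated tumour. Of 12 stromal and blood cell markers 4 were described, 2 of them higher and 0 lower, beside the same shares of all described genes, and the list summed to 128 CPM in the refractory and 35.3 CPM in the untreated tumour. CD68 stood at 29.2 CPM in the refractory and 3.62 CPM in the untreated tumour and LYZ, which gastric epithelium also makes, at 95.9 CPM in the refractory and 27.2 CPM in the untreated tumour, while COL1A2, COL3A1, DCN and CDH5 had 0 counts in both. LYZ and CD68 made up most of the sum. The other 2 described members had the lower level in the refractory tumour without being called. VWF stood at 0.202 CPM in the refractory and 1.39 CPM in the untreated tumour, 6.85-fold lower without the added CPM. COL1A1 stood at 1.80 CPM in the refractory and 2.92 CPM in the untreated tumour. The table holds human genes and the hosts were mice, and the part of host cells or host skin in the keratin reads was not tested.

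In the authors' deposited table, 7 of the 19 described keratins had a p-value under 0.05, all of them lower in the refractory tumour: KRT4, KRT5, KRT6A, KRT13, KRT14, KRT20 and KRT81. Of all 14167 described genes, 5.88% had such a value with a lower level in the authors' deposited table. These p-values set 1 library against 1 and compare the libraries, not the conditions. For KRT7 and KRT8 the authors' deposited table gave 0.347 and 0.454.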

How the data were processed

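RNA was sequenced from 1 T-DM1-refractory and 1 untreated xenograft tumour, grouped by the treatment label. The authors deposited expected counts (estimated reads per gene, not always whole), FPKM, a log2 fold change and a p-value per gene. The submitters' processing notes name RSEM 1.2.28, STAR 2.7.0e, bcl2fastq 2.20 and edgeR 3.26.8 with the builds GRCh38 and GRCm38. How each was used, including the mouse build, and which annotation and filters applied, is not stated there. The authors' log2 fold change ran refractory over untreated: its largest gap to the log2 ratio of the scaled counts was 0.0207, over the 13007 genes above 50 reads in each library.

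Expected counts were rounded, scaled with TMM factors (0.990 refractory, 1.01 untreated; edgeR 4.0.16, R 4.3.3) and expressed as CPM. With 1 library per group no test was made. Depth sets the floor of 3 counts, 0.0506 CPM in the refractory and 0.0392 CPM in the untreated library. Intervals come from scipy 1.17.1. Levels of different genes were ranked on the FPKM scale only; sums of CPM describe reads. Promoters came from a RefSeq table of GRCh38.p14, where 34 of 55 keratins matched by symbol. Coordinates are the coding start (from 1) and end of the authors' table. The ratio, interval and call steps were tested on simulated data.

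The keratins, their classes and the gene lists were chosen with earlier results of these data known. Every keratin of at least 1 CPM in either library is named with values; from each list the 2 members with the largest difference past 2-fold in each direction are named, or the most abundant where none passed, and any other gene was picked with its values known. A list of intestinal regulators is not reported here as a whole. Other scalings, pseudocounts, filters, thresholds and the FPKM scale were tried as alternatives.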

Additional observations from a re-analysis of the deposited data

How the results depend on the processing

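No paired analysis was possible because each group holds 1 library, and for the same reason no library could be left out. None of the 114 recomputed values of single keratins changed sign, and 105 kept their side of 2-fold. Values recomputed only with another added CPM could not change sign. The count of lower keratins (9) was 7 to 10 under other scalings, pseudocounts and filters, on the FPKM scale and in a pair of alternatives added after the data were seen (near-identical genes summed, 7; no added CPM, 10). At 1.5-fold it was 14 and at 4-fold 5. The single higher keratin, KRT7, was lost (0 higher) with total counts, with total counts without the 50 most abundant genes, with 5 CPM added, on the FPKM scale and at 4-fold. KRT4 and KRT81 lost their call with 5 CPM added and on the FPKM scale, KRT81 also when summed with KRT86 (log2 -0.86), and KRT9 gained one with 0.1 CPM added.

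The ratio of the simple class (0.754) was 0.740 with total counts, 0.7504 with median-of-ratios factors, 0.738 without the 50 most abundant genes and 0.763 on the FPKM scale. That of the basal class (0.1003) was 0.0746 on the FPKM scale, and that of the suprabasal class (0.433) 0.384 on the FPKM scale and 0.487 with the activation keratins added. The activation class (0.488) gave 0.479 with total counts, 0.478 without the 50 most abundant genes and 0.516 on the FPKM scale. Not divided by length, simple keratins took 70.6% in the refractory and 55.3% in the untreated tumour, and type I over type II was 1.66 in the refractory and 1.48 in the untreated tumour. The cause of these shifts was not tested. Counts of 25 and 22 for KRT5 and KRT20 in the refractory library set the width of their intervals, and with 1 library per group no replicate spread is known.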
